A study of Zea mays with 18 samples.

Results

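Plants make p-aminobenzoate, one of the building blocks of folate, from chorismate in plastids. Aminodeoxychorismate synthase (ADCS) turns chorismate into aminodeoxychorismate, and aminodeoxychorismate lyase (ADCL) releases p-aminobenzoate from it. In mitochondria p-aminobenzoate is then joined to a pterin, which is made by a separate branch, and the product is completed with glutamate. The p-aminobenzoate branch of maize is described here by 3 genes, ADCS (Zm00001d036484), ADCL1 (Zm00001d029231) and ADCL2 (Zm00001d039264). They were picked by their identifiers as genes of this branch, with earlier results of these data known, so the choice is not independent of these libraries. They lay in 3 of 77704 loci in the expression table, 40171 of which carried a gene identifier of the B73 reference.

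RNA-seq of whole kernels was compared between the line DAN3130, bred from the American hybrid P78599, and the line JI63, bred from the cross (127-32 × Tie84) × (Wei24 × Wei20). Kernels were taken on DAP 24 and DAP 35 (days after pollination) and as mature kernels, harvested once the plants had yellowed, and each line and stage had 3 libraries, 18 in all. The comparisons address which genes change late in kernel formation and which differ between lines that store different amounts of folate. The study collected biological replicates and pooled RNA, and how that pooling relates to the 3 libraries is not stated, so that the p-values below measure the spread between libraries, which may be technical. Values are read counts scaled by the authors, called normalized counts below. Differences are log2 differences of the normalized count plus 1 with their standard error, tested with limma over 29191 loci, and a locus counts as called where its p, adjusted by the method of Benjamini and Hochberg, is under 0.05.

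Reads in loci ranged between 9428728 and 133264978 per library. The mean total of normalized counts was 34283100 in mature DAN3130 kernels and 48013400 in mature JI63 kernels, against 23856800 to 24909500 in the 4 immature groups. The spread between libraries over all loci was widest in mature DAN3130 kernels, with a residual SD of 1.97 on the log2 scale, and narrowest in DAN3130 on DAP 24, at 0.61. Endosperm markers (22 loci, 7 of them at 0 in every library of each immature group, among them the 27-kDa zein) summed to 7.62% to 8.54% of counts in DAN3130 on DAP 24, to 0.0214% to 0.103% in mature DAN3130 kernels and to 0.0121% to 0.0205% in mature JI63 kernels. Why 7 of the loci held no reads was not tested, so the sums do not measure endosperm content. Opaque endosperm7 of this list went the other way. From DAP 24 to maturity its mean rose from 501 to 2505 normalized counts in DAN3130 and from 1711 to 3241 in JI63. Leaf markers (12 loci) summed to at most 0.00316% of counts in any library. In whole kernels fewer cells of a type and less RNA per cell cannot be told apart.

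ADCS lay on chromosome 6 at 90182195 to 90188081 of the B73 AGPv4 assembly, with a longest isoform of 3420 bases. ADCL1 lay on chromosome 1 at 63214865 to 63234392, with a longest isoform of 2114 bases and 17405 bases of intron. ADCL2 lay on chromosome 3 at 765433 to 768838, in a locus that the authors' assembly built from 3 transcripts of 2 genes, ADCL2 and Zm00001d039263. Its longest isoform had 2336 bases, and its reads cannot be divided between both genes, so every ADCL2 value is a value of the joined locus. Alignment did not use strand, so that reads from a gene and from an antisense partner cannot be told apart. A further locus of 231 bases inside ADCS held 0 reads in 18 libraries.

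ADCS, the first enzyme of the branch, was highest in mature kernels of both lines. In DAN3130 it had 425, 395 and 510 normalized counts on DAP 24, 376, 525 and 502 on DAP 35, and 1588, 1275 and 1416 in mature kernels. In JI63 it had 528, 448 and 450 on DAP 24, 673, 557 and 853 on DAP 35, and 2619, 2809 and 3890 in mature kernels. In each line all 3 mature libraries lay above all 6 immature libraries, and the reads behind a single value numbered at least 265.

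The group means of ADCS were 443 ± 59.3, 468 ± 80.1 and 1426 ± 157 in DAN3130, and 475 ± 45.2, 694 ± 149 and 3106 ± 685 in JI63, from DAP 24 through DAP 35 to maturity (SD, n = 3 each). The order of the 6 groups was mature JI63, mature DAN3130, JI63 on DAP 35, JI63 on DAP 24, DAN3130 on DAP 35 and DAN3130 on DAP 24. Each of the first 3 lay above the next without overlap, while the last 3 overlapped.

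**Figure D1:**
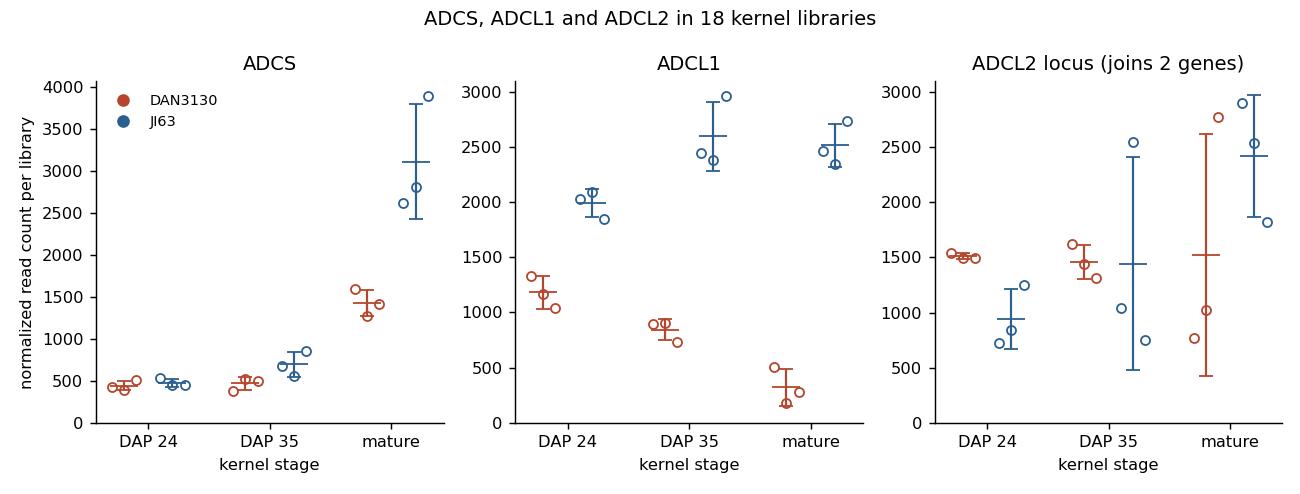
Normalized read counts of ADCS, ADCL1 and the ADCL2 locus (vertical axes, from 0) by kernel stage (horizontal axis) in DAN3130 and JI63. Open points are libraries, and bars give the mean and SD of 3 libraries; mature ADCS averaged 1426 in DAN3130 and 3106 in JI63, and mature ADCL1 averaged 322 in DAN3130 and 2514 in JI63.

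From DAP 35 to maturity ADCS rose in both lines. The difference of mature minus DAP 35 kernels was 1.62 ± 0.21 in DAN3130 (limma, adjusted p = 1.71e-05), and it was 2.16 ± 0.21 in JI63 (adjusted p = 1.16e-06), which are ratios of means of 3.05 and 4.48. The medians over all loci tested were -0.43 and -0.36. Among 30 folate genes, ADCS had the fourth highest of these differences in DAN3130 and the second highest in JI63. In DAN3130 2 of the 3 members were called, where 50.7% of all loci were (19.2% higher and 31.5% lower). In JI63 1 of the 3 was called, where 45.6% of all loci were (17.8% higher and 27.8% lower). With libraries set to equal totals, which moved the median of all loci by -0.48 in DAN3130 and -0.87 in JI63, the rises of ADCS were 1.15 and 1.21, and both were still called.

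Over the whole span, mature minus DAP 24, ADCS rose by 1.69 ± 0.21 in DAN3130 (adjusted p = 6.68e-06). In JI63 it rose by 2.69 ± 0.21 (adjusted p = 6.83e-08), the highest of the 30 folate genes. In this comparison 58.1% of all loci were called in DAN3130 (22.4% higher and 35.8% lower), and 51.4% in JI63 (20.8% higher and 30.6% lower). The rise was smaller in DAN3130 than in JI63, with a difference between the lines of -1.00 ± 0.30 (adjusted p = 0.0286), against 20.7% of all loci called (9.76% higher and 11.0% lower). That call was lost with a weight for each group's spread (adjusted p = 0.174), with equal totals (0.340) and in 7 further alternatives, over a range of adjusted p of 0.0107 to 0.340.

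Between DAP 24 and DAP 35 the changes of ADCS did not pass the test. The difference of DAP 35 minus DAP 24 was 0.07 ± 0.21 in DAN3130 (adjusted p = 0.959), where the libraries overlapped, and 0.53 ± 0.21 in JI63 (adjusted p = 0.161), where all 3 DAP 35 libraries were higher. Between these stages of JI63, 40.3% of all loci had no overlap. No member was called at this step in either line by limma, edgeR or DESeq2. Over all loci, limma called 6.55% in DAN3130 (4.41% higher and 2.14% lower) and 9.09% in JI63 (4.27% higher and 4.82% lower). The difference between the lines in this step was called for none of the 3 members by any of these tools. For that difference limma called 2.36% of all loci (1.66% higher and 0.706% lower).

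Between the lines, ADCS was lower in DAN3130 than in JI63 at maturity. Mature DAN3130 kernels had 1588, 1275 and 1416 normalized counts, against 2619, 2809 and 3890 in mature JI63 kernels, with no overlap, as for 31.8% of all loci, and a ratio of means of 0.459. The difference was -1.11 ± 0.21 (adjusted p = 0.000777), and 2 of the 3 members were called lower, where 37.1% of all loci were called (15.6% higher and 21.5% lower). It was -0.61 with equal totals (adjusted p = 0.101), and it was not called with a weight for each group's spread (adjusted p = 0.102), while the adjusted p over all alternatives ran between 4.86e-06 and 0.102. On DAP 24 the lines overlapped, with a difference of -0.10 ± 0.21 (adjusted p = 0.827). On DAP 35 all 3 DAN3130 libraries were lower, with a difference of -0.56 ± 0.21 (adjusted p = 0.0737) that passed the test with DESeq2 (0.0353) and without JI63 library 27 (0.0396), over a range of 0.0137 to 0.290. At that stage 47.2% of all loci had no overlap between the lines.

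The split of all loci into higher and lower calls moved with the scaling, which sets the background for these members. From DAP 35 to maturity 5613 loci were higher and 9196 lower in DAN3130, and 3971 higher and 11852 lower with equal totals. In JI63 they were 5194 and 8108, and 2423 and 13227 with equal totals. For mature DAN3130 minus JI63 kernels they were 4551 and 6286, and 6574 and 4241 with equal totals. ADCS was lower under both scalings, at -1.11 and -0.61, and was called under the deposited one alone of these 2.

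ADCL1, which carries out the second step of the branch, fell toward maturity in DAN3130 and was lower there than in JI63 at every stage. In DAN3130 it had 1333, 1169 and 1041 normalized counts on DAP 24, 895, 900 and 732 on DAP 35, and 504, 181 and 282 in mature kernels, so that no libraries overlapped between stages. In JI63 it had 2029, 2094 and 1851 on DAP 24, 2448, 2378 and 2957 on DAP 35, and 2464, 2348 and 2731 in mature kernels. All 9 JI63 libraries lay above all 9 DAN3130 libraries, and the share of all loci that did so was not counted. Between the lines at a single stage, 57.5%, 47.2% and 31.8% of all loci had no overlap on DAP 24, on DAP 35 and at maturity. Between stages of DAN3130 these shares ran between 40.6% and 57.5%. The lowest value rested on 51 reads, in mature DAN3130 library 34.

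The group means of ADCL1 were 1181 ± 146, 842 ± 95.7 and 322 ± 166 in DAN3130, and 1991 ± 126, 2594 ± 316 and 2514 ± 197 in JI63, from DAP 24 through DAP 35 to maturity (SD, n = 3 each). The order of the groups was JI63 on DAP 35, mature JI63, JI63 on DAP 24, DAN3130 on DAP 24, DAN3130 on DAP 35 and mature DAN3130. Only JI63 on DAP 35 and mature JI63 overlapped among neighbours in that order.

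From DAP 35 to maturity ADCL1 fell in DAN3130, with a difference of -1.50 ± 0.26 (limma, adjusted p = 0.000227), a ratio of means of 0.383. In JI63 the same difference was -0.04 ± 0.26 (adjusted p = 0.943; 95% interval -0.60 to 0.52). It was called lower there with equal totals (-0.99, adjusted p = 0.0163) and with equal upper quartiles (-0.94, adjusted p = 0.0297), both of which lowered the median of all loci, by 0.87 and 0.88, and the adjusted p over all alternatives ran between 0.0163 and 1. The change in DAN3130 minus that in JI63 was -1.46 ± 0.37 (adjusted p = 0.0167), and ADCL1 was the 1 member of 3 called, where 13.8% of all loci were (5.90% higher and 7.92% lower). That difference between the lines was not called with equal totals (-0.98, adjusted p = 0.162), with equal upper quartiles (-0.95, 0.220) or with only the 4 groups compared (0.0723), over a range of 0.000392 to 0.220.

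Over the whole span ADCL1 fell by 1.99 ± 0.26 on the log2 scale in DAN3130 (mature minus DAP 24, adjusted p = 1.07e-05). In JI63 all 3 mature libraries were higher, in a comparison where 62.9% of all loci had no overlap. The difference there was 0.34 ± 0.26 (adjusted p = 0.318). In JI63 the value had the opposite sign with equal totals (-0.62) and was not called there. The difference between the lines over the span was -2.33 ± 0.37 (adjusted p = 0.000469), which is the second lowest of the 30 folate genes. It was called under all 30 alternatives, with values between -2.71 and -1.88.

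**Figure D2:**
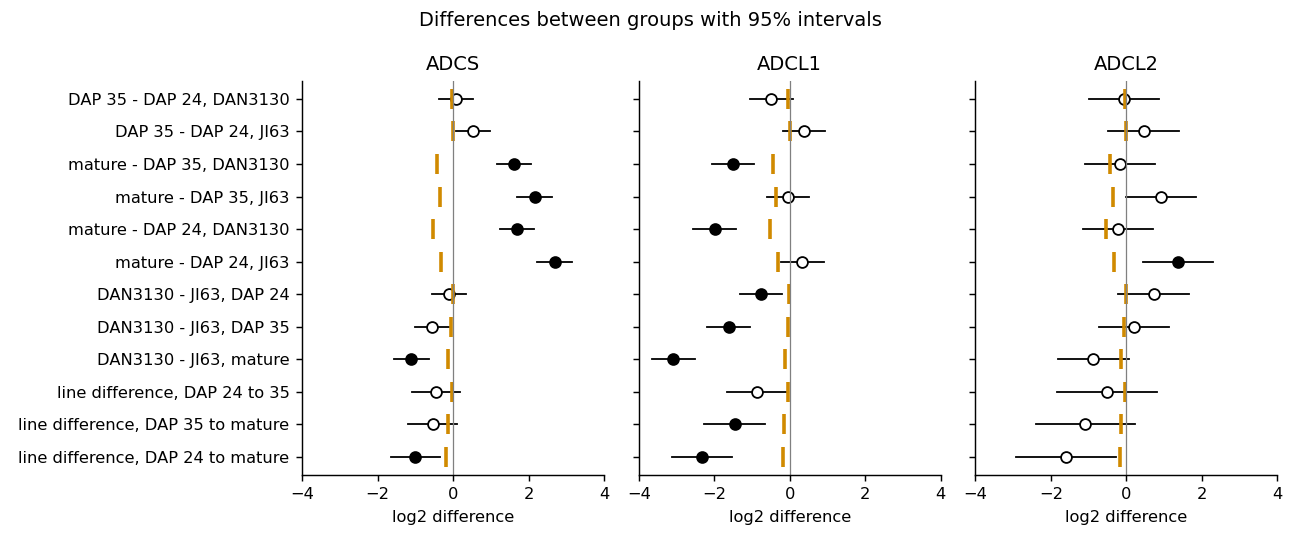
Log2 differences between groups (horizontal axis) for 12 comparisons, with 95% intervals, for ADCS, ADCL1 and the ADCL2 locus. Filled points have an adjusted p under 0.05, open points do not, and orange ticks give the median of 29191 loci; mature minus DAP 35 ADCS was 1.62 in DAN3130 and 2.16 in JI63, and DAN3130 minus JI63 of ADCL1 was -3.08 in mature kernels.

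At every stage ADCL1 was lower in DAN3130 than in JI63. Mature DAN3130 kernels had 504, 181 and 282 normalized counts, against 2464, 2348 and 2731 in mature JI63 kernels, with a ratio of means of 0.128. The difference was -3.08 ± 0.26 (adjusted p = 2.23e-07), the lowest of the 30 folate genes, against a median over all loci of -0.13. It was called under all 30 alternatives, with values between -3.47 and -2.59. On DAP 35 the difference was -1.62 ± 0.26 (adjusted p = 0.000238), and ADCL1 was the 1 member of 3 called, where 23.3% of all loci were (11.3% higher and 11.9% lower). Endosperm markers made up 4.04% to 4.14% of counts in DAN3130 and 0.816% to 1.11% in JI63 at that stage, and their part in the difference was not tested. On DAP 24 it was -0.76 ± 0.26 (adjusted p = 0.0475), again the 1 member of 3 called, where 24.8% of all loci were (11.2% higher and 13.6% lower). That last call was lost without any 1 of 15 libraries, all those but the mature DAN3130 ones, and in 21 of 31 alternatives in all, over a range of adjusted p of 5.84e-05 to 0.155.

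The intron entry of ADCL1 in the table held a small share of the locus's counts. Its intron counts were on average 0.810%, 0.173% and 0% of the locus counts in DAN3130 on DAP 24, DAP 35 and at maturity, and 1.49%, 1.15% and 0.0274% in JI63. The share was below 2% in every group. Over mature kernels the intron reads numbered 0 in DAN3130 and 1 in JI63.

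The ADCL2 locus, the further lyase locus, spread widely between libraries in 2 of the 6 groups. In DAN3130 it had 1543, 1495 and 1496 normalized counts on DAP 24, 1619, 1445 and 1310 on DAP 35, and 768, 1020 and 2777 in mature kernels. In JI63 it had 728, 844 and 1247 on DAP 24, 1042, 2543 and 750 on DAP 35, and 2903, 2542 and 1818 in mature kernels. Library 35 stood above the others of mature DAN3130 and library 27 above the others of JI63 on DAP 35.

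The group means of the ADCL2 locus were 1511 ± 27.4, 1458 ± 155 and 1522 ± 1095 in DAN3130, and 939 ± 272, 1445 ± 962 and 2421 ± 552 in JI63, from DAP 24 through DAP 35 to maturity (SD, n = 3 each). Mature JI63 was highest and JI63 on DAP 24 lowest, and every neighbouring pair in the order overlapped. The coefficient of variation was 71.9% in mature DAN3130 and 66.6% in JI63 on DAP 35, against at most 29.0% in the other 4 groups.

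Of the comparisons between single groups, 1 was called for the ADCL2 locus. Mature JI63 kernels had 2903, 2542 and 1818 normalized counts, against 728, 844 and 1247 in JI63 on DAP 24. They did not overlap, as was so for 62.9% of all loci, and the difference was 1.38 ± 0.44 (limma, adjusted p = 0.0154). It was lost with equal totals (0.42, adjusted p = 0.331), with equal upper quartiles (0.68, 0.237), without JI63 library 22 (1.21, 0.0609) and without JI63 library 39 (1.23, 0.0577), over a range of 0.00369 to 0.331. In DAN3130 the same difference was -0.22 ± 0.44 (adjusted p = 0.698), and the difference between the lines was -1.60 ± 0.62 (adjusted p = 0.0804).

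Other differences of the ADCL2 locus passed the test without a single library. DAN3130 minus JI63 in mature kernels was -0.87 ± 0.44 (adjusted p = 0.133; 95% interval -1.81 to 0.06), and -1.42 without DAN3130 library 35 (adjusted p = 0.00832, over a range of 0.00832 to 0.515). Mature minus DAP 35 in JI63 was 0.92 ± 0.44 (adjusted p = 0.102), and 1.43 without JI63 library 27 (adjusted p = 0.0117, over a range of 0.0117 to 1). This last difference was also called without mature DAN3130 library 35 (adjusted p = 0.0402), which it does not use, since the fit shares 1 spread over the groups. On DAP 24 the 3 DAN3130 libraries lay above the 3 JI63 libraries, with a difference of 0.72 ± 0.44 (adjusted p = 0.285) that was called with only the 2 groups compared (0.0341) and with a weight for each group's spread (0.0257), over a range of 0.0257 to 0.565. At that stage the lines did not overlap for 57.5% of all loci. On DAP 35 the lines overlapped, with a difference of 0.21 ± 0.44 (adjusted p = 0.828). Across the 9 comparisons between single groups, libraries did not overlap in 7 for ADCS, 8 for ADCL1 and 2 for the ADCL2 locus. Over the 29191 loci tested the median was 5 of 9. No overlap in at least 2 was found for 90.3% of loci, in at least 7 for 17.8% and in at least 8 for 6.56%. In a single comparison the share of loci without overlap ran between 31.8% (mature DAN3130 against mature JI63) and 62.9% (mature against DAP 24 in JI63).

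The sum of an embryo marker list was also high in those 2 libraries, mostly through oleosin1 and globulin1. The list, called embryo and aleurone here, held 11 loci drawn by the words oleosin, globulin1 and viviparous in gene names. Of these, 8 were above 0 in every library of every group. The list summed to 4.50% of counts in mature DAN3130 library 35, against 1.43% and 2.57% in libraries 33 and 34. In JI63 on DAP 35 it summed to 5.03% in library 27, against 2.45% and 2.22% in libraries 26 and 29. Globulin1 had 313509 normalized counts in library 35, against 100128 and 76310 in libraries 33 and 34. In library 27 it had 1077360, against 421298 and 381807 in libraries 26 and 29. The viviparous loci are in the list by their names alone, which do not show that they mark a tissue, and they went both ways. From DAP 35 to maturity in DAN3130 the mean of viviparous1 rose from 2482 to 15631, while that of viviparous9 fell from 885 to 583. Over all libraries the list ran between 0.697% and 5.03%, and the locus of oleosin3 was at 0 in all 18.

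Oleosin1, an embryo oil body protein and a member of that list, was picked for the next comparison after its values were seen. It had 293685, 769251 and 1487410 normalized counts in mature DAN3130 libraries 33, 34 and 35, and 137635, 367020 and 113458 in JI63 DAP 35 libraries 26, 27 and 29. The 3 libraries of a group came in the same order for oleosin1 and for the ADCL2 locus in 4 of 6 groups, for oleosin1 and ADCS in 1 of 6, and for oleosin1 and ADCL1 in 0 of 6. For globulin1, an embryo storage protein of the same list, the order matched that of ADCS in 0 of 6 groups, that of ADCL1 in 2 and that of the ADCL2 locus in 1. The part of these markers in the members' values was not tested.

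**Figure D3:**
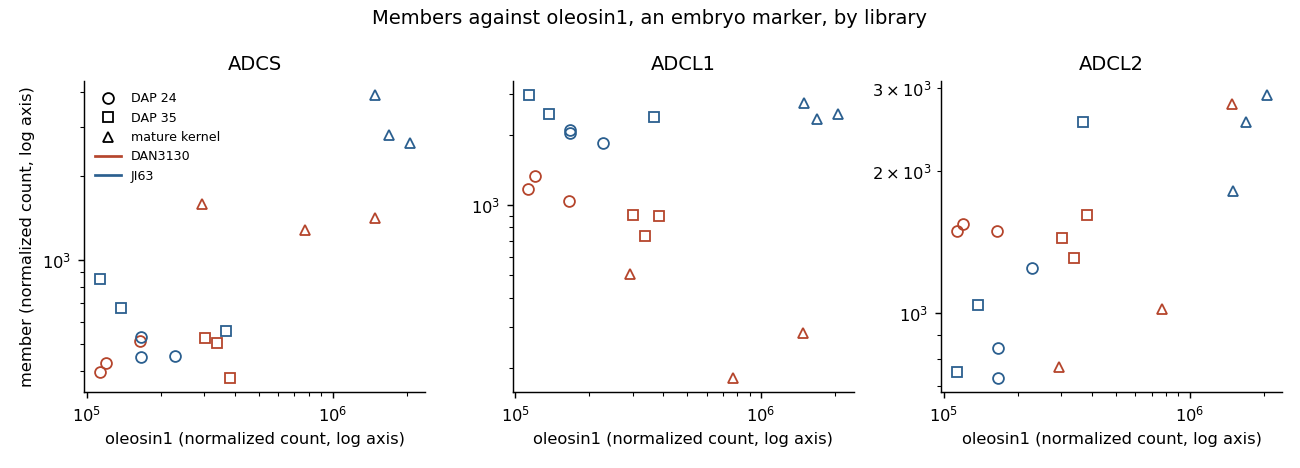
ADCS, ADCL1 and the ADCL2 locus (vertical axes, log scale) against oleosin1 (horizontal axis, log scale) in 18 libraries, both in normalized counts. Colours give the line and shapes the stage; in mature DAN3130 the library with 1487410 oleosin1 counts had the 2777 of the ADCL2 locus, and the library with 293685 had 768.

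Ratios between members within a library do not depend on how libraries were scaled. The ratio of ADCL1 to ADCS averaged 2.71, 1.85 and 0.219 in DAN3130 and 4.21, 3.79 and 0.826 in JI63, from DAP 24 through DAP 35 to maturity. Per base of longest isoform these are 4.39, 2.99 and 0.355 in DAN3130, and 6.81, 6.14 and 1.34 in JI63. At maturity ADCL1 was thus below ADCS per length in all 3 DAN3130 libraries, at 0.229 to 0.514, and above it in all 3 JI63 libraries, at 1.14 to 1.52.

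These ratios were tested by exact two-sided permutation of the libraries within stage or within line, in 9 tests chosen after the values were seen. The log2 ratio of ADCL1 to ADCS was lower in DAN3130 than in JI63 by 1.23 over the 3 stages (difference -1.23, exact p = 0.00025, the smallest that these permutations can give, adjusted p = 0.00113). It was lower in mature than in DAP 35 kernels by 2.66 over both lines (difference -2.66, exact p = 0.005, also the smallest possible, adjusted p = 0.015). For ADCL2 to ADCS the difference of mature minus DAP 35 kernels was -1.51 (adjusted p = 0.0338) and that of DAN3130 minus JI63 was 0.61 (adjusted p = 0.116). For ADCL1 to ADCL2 the difference of DAN3130 minus JI63 was -1.84 (exact p = 0.00025, adjusted p = 0.00113) and that of mature minus DAP 35 kernels was -1.15 (adjusted p = 0.0975). None of the 3 ratios passed the exact test between DAP 35 and DAP 24, where the smallest adjusted p was 0.0975.

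Between the lyase loci, the ratio of ADCL1 to ADCL2 averaged 0.781, 0.578 and 0.312 in DAN3130 and 2.25, 2.41 and 1.09 in JI63, from DAP 24 through DAP 35 to maturity. All 9 DAN3130 libraries were below 1, at no more than 0.864, while 6 JI63 libraries were above it. Per base of longest isoform the mean ratios were 0.863, 0.639 and 0.345 in DAN3130, and 2.49, 2.66 and 1.21 in JI63. Because the ADCL2 locus joins 2 genes, dividing by its 1 longest isoform does not correct for the length of ADCL2 alone.

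**Figure D4:**
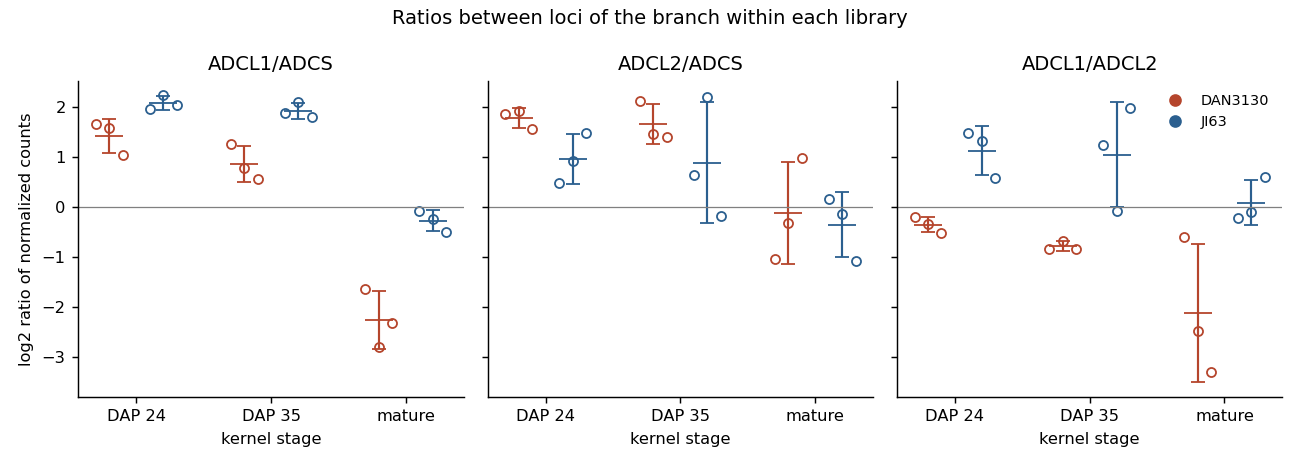
Log2 ratios of normalized counts between 2 loci of the branch within a library (vertical axis, not corrected for length) by kernel stage (horizontal axis). Open points are libraries, bars give the mean and SD of 3 libraries; the mean ratio of ADCL1 to ADCS in mature kernels was 0.219 in DAN3130 and 0.826 in JI63, both below their DAP 35 values of 1.85 and 3.79.

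The other folate genes stood on both sides. Of 27 further genes of folate metabolism, which the study chose on these libraries and which are therefore not independent evidence, 5 were called higher and 12 lower from DAP 35 to maturity in DAN3130 (median -0.19), and 5 higher and 9 lower in JI63 (median -0.26). In mature kernels 5 were higher and 11 lower in DAN3130 than in JI63 (median -0.53). The medians over all loci in the same comparisons were -0.43, -0.36 and -0.13. Of all loci, 19.2% were higher and 31.5% lower in DAN3130, 17.8% and 27.8% in JI63, and 15.6% and 21.5% between the mature lines. The counts of the 27 genes moved with the scaling. With equal totals 2 were higher and 14 lower in DAN3130, 0 higher and 17 lower in JI63, and 6 higher and 5 lower between the mature lines. The background with equal totals, also for the lists below, was 29446 loci tested. Of these, 3971 were higher and 11852 lower in DAN3130, 2423 and 13227 in JI63, and 6574 and 4241 between the mature lines.

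In the pterin branch, which makes the molecule that p-aminobenzoate is joined to, 2 of 4 genes were higher and 0 lower in mature than in DAP 35 kernels of DAN3130 (median 0.70), and 1 of 4 higher and 0 lower in JI63 (median 0.78). Of all loci, 19.2% were higher and 31.5% lower in DAN3130, and 17.8% and 27.8% in JI63. With equal totals 1 of 4 was higher in DAN3130 (median 0.24) and 0 of 4 in JI63, where the median turned to -0.16. DHNA2, a dihydroneopterin aldolase, had the larger change in DAN3130, at 3.49 ± 0.46 (adjusted p = 1.68e-05), and DHNA1 in JI63, at 1.35 ± 0.36 (adjusted p = 0.00658), or 0.40 with equal totals, which did not pass (adjusted p = 0.301). In mature kernels DHNA2 was higher in DAN3130 than in JI63 by 3.78 ± 0.46 (adjusted p = 9.47e-06), where ADCS and ADCL1 were lower. GCHI-2, a GTP cyclohydrolase I, was lower, at -2.35 ± 0.73 (adjusted p = 0.0195).

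HPPK/DHPS, the enzyme that joins p-aminobenzoate to the pterin, fell where ADCS rose. Its means were 296 ± 232 in mature and 1095 ± 55.8 in DAP 35 kernels of DAN3130, and 191 ± 78.1 in mature and 856 ± 221 in DAP 35 kernels of JI63 (SD, n = 3 each). The differences were -2.34 ± 0.54 (adjusted p = 0.00209) and -2.22 ± 0.54 (adjusted p = 0.00339). In mature kernels its difference between DAN3130 and JI63 was 0.27 ± 0.54 (adjusted p = 0.734). It belongs to 8 genes of assembly and glutamate tail, of which 1 was called higher and 5 lower in DAN3130 from DAP 35 to maturity (median -0.86), and 1 higher and 3 lower in JI63 (median -0.42). Of all loci, 19.2% were higher and 31.5% lower in DAN3130, and 17.8% and 27.8% in JI63. With equal totals the counts of the 8 genes were 1 and 5 in DAN3130 (median -1.33), and 0 and 6 in JI63 (median -1.37). With the deposited scaling FPGS1, a folylpolyglutamate synthetase, was the 1 higher, at 1.67 ± 0.22 in kernels of DAN3130 (adjusted p = 1.79e-05) and 1.03 ± 0.22 in those of JI63 (adjusted p = 0.00139), where it was 0.08 with equal totals (adjusted p = 0.869) and 0.13 with equal upper quartiles (adjusted p = 0.741). HPPK/DHPS was lower at maturity under both of these scalings, at -2.81 and -2.72 in DAN3130 and at -3.17 and -3.12 in JI63.

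Among 15 genes of one-carbon metabolism, which use folate as a carrier, 2 were called higher and 7 lower from DAP 35 to maturity in DAN3130 (median -0.25), and 3 higher and 6 lower in JI63 (median -0.33). Of all loci, 19.2% were higher and 31.5% lower in DAN3130, and 17.8% and 27.8% in JI63. MS2, a methionine synthase, had the largest fall in this list in both lines, at -5.07 ± 0.20 in DAN3130 (adjusted p = 1.44e-10), while JI63 had -3.92 ± 0.20 (adjusted p = 2.34e-09). Among the genes called higher, the largest differences were those of SHMT7-1, a serine hydroxymethyltransferase, at 1.02 ± 0.18 in DAN3130 (adjusted p = 0.000238), and of MS1, a further methionine synthase, at 2.52 ± 0.78 in JI63 (adjusted p = 0.0154). In DAN3130 MS1 had the larger value, 1.67 ± 0.78, and did not pass (adjusted p = 0.0869). With equal totals neither called difference passed (adjusted p = 0.0570 and 0.0982), and 0 of the 15 were called higher in either line. In mature kernels 4 of the 15 were higher and 7 lower in DAN3130 than in JI63 (median -0.73), where 15.6% of all loci were higher and 21.5% lower. GCSP, the P protein of the glycine decarboxylase complex, stood at -2.49 ± 0.30 (adjusted p = 7.79e-06). The balance of the 15 turned round with equal totals, to 5 higher and 3 lower. Highest of them was 5-FCL-2, a 5-formyltetrahydrofolate cycloligase, at 1.88 (limma, adjusted p = 0.00624), which did not pass with equal upper quartiles (1.33, adjusted p = 0.0721). SHMT7-1 and SHMT7-2 were called higher at 1.62 and 1.70 with equal totals. With equal upper quartiles they were the 2 called higher, at 1.06 and 1.15, and 5 were lower.

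**Figure D5:**
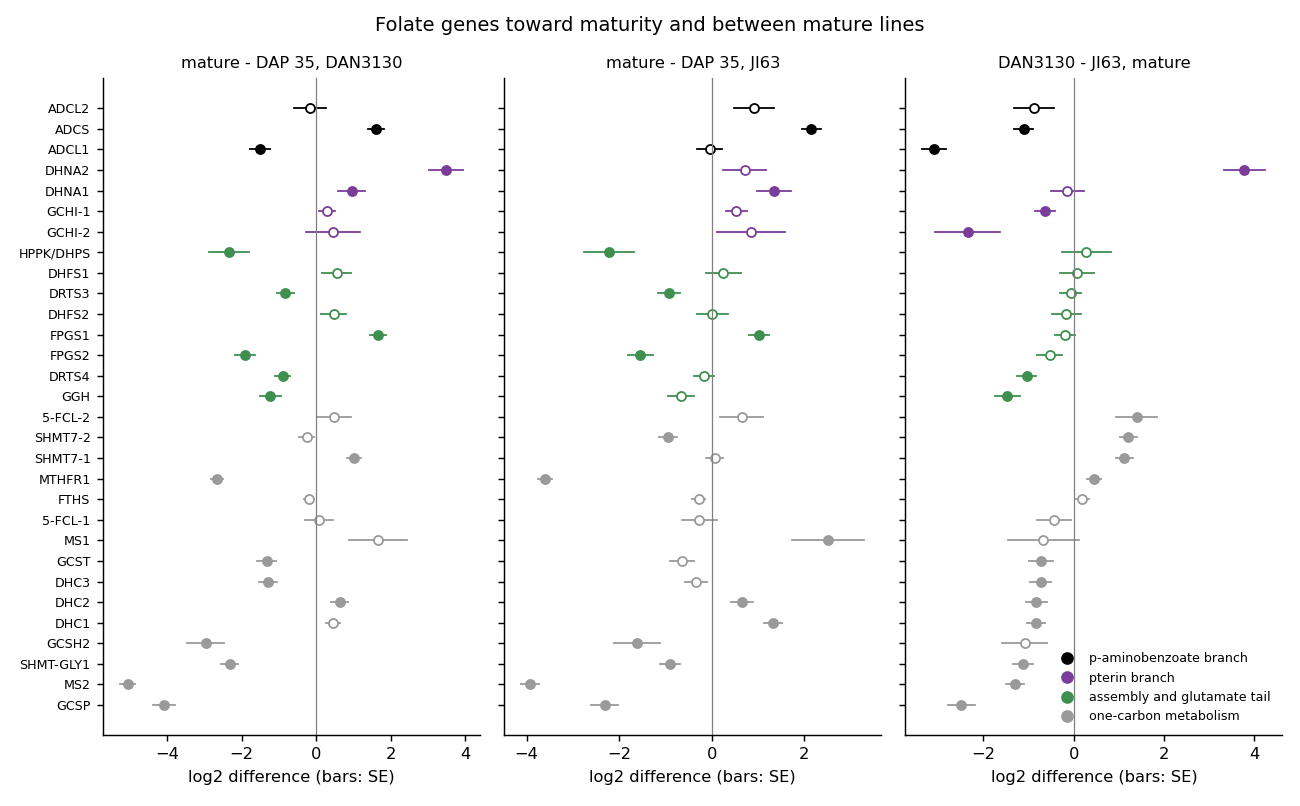
Log2 differences (horizontal axes, bars give 1 standard error) of 30 folate genes for mature minus DAP 35 kernels in DAN3130 and in JI63 and for DAN3130 minus JI63 in mature kernels, coloured by part of the pathway. Filled points have an adjusted p under 0.05; ADCS stood at 1.62 and 2.16 where HPPK/DHPS stood at -2.34 and -2.22, and ADCL1 at -3.08 was lowest between the mature lines.

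Genes around chorismate, the substrate of ADCS, were found by name, as 5 loci of the shikimate pathway and of other uses of chorismate. From DAP 35 to maturity 0 were called higher and 2 lower in DAN3130 (median -0.55), and 0 higher and 3 lower in JI63 (median -0.74). Of all loci, 19.2% were higher and 31.5% lower in DAN3130, and 17.8% and 27.8% in JI63. With equal totals the counts of the 5 loci were 0 and 2 in DAN3130 (median -1.02), and 0 and 4 in JI63 (median -1.69). Both of the genes that fell in DAN3130 were chorismate mutases, which draw chorismate toward phenylalanine and tyrosine, and they are named here after their values were seen. Chorismate mutase1 fell by 6.85 ± 0.91 in DAN3130 (adjusted p = 1.68e-05) and by 2.90 ± 0.91 in JI63 (adjusted p = 0.0160), and chorismate mutase2 fell by 2.80 ± 0.35 in DAN3130 (adjusted p = 9.63e-06) and by 1.57 ± 0.35 in JI63 (adjusted p = 0.00175), all on the log2 scale. In mature kernels 1 of the 5 was higher in DAN3130 than in JI63, shikimate dehydrogenase1 at 1.02 ± 0.25 (adjusted p = 0.00513), and 1 was lower, chorismate mutase1 at -3.26 ± 0.91 (adjusted p = 0.0108). Of all loci, 15.6% were higher and 21.5% lower in that comparison. With equal totals 2 of the 5 were higher, with anthranilate synthase homolog1 added at 0.75 (adjusted p = 0.0394), and 1 lower. Chorismate mutase1 averaged 21.2 ± 19.7 normalized counts in mature DAN3130 kernels and 102 ± 41.5 in mature JI63 kernels (SD, n = 3 each). In mature DAN3130 libraries 1 read was worth 1.08 to 3.54 normalized counts, so the size of its differences there rests on few reads.

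The named loci most like each member were ranked by Pearson's r of log2 values over 18 libraries among 2658 loci with a name and a mean of at least 100, as a description over libraries that share line, stage and scaling. For ADCS they were abscisic acid 8'-hydroxylase2, an enzyme of abscisic acid breakdown (r = 0.963), HSF-transcription factor 22 (0.960), bZIP-transcription factor 38 (0.958), GRMZM2G138074 (0.950) and TUB-transcription factor 1 (0.949). Abscisic acid 8'-hydroxylase2 averaged 6304 normalized counts in mature and 388 in DAP 35 kernels of DAN3130, and 19848 in mature and 789 in DAP 35 kernels of JI63. For ADCL1 they were snoR74 (r = 0.958), cycloartenol synthase1, an enzyme of sterol synthesis (0.942), potassium channel5 (0.917), gpm109a (0.915) and math-btb25 (0.914). Potassium channel5 averaged 2.16 normalized counts in mature DAN3130 and 673 in mature JI63 kernels. Its mean in mature DAN3130 is near the floor and rests on few reads, as 1 read there was worth 1.08 to 3.54 normalized counts. For the ADCL2 locus the values were lower, with OVATE-transcription factor 4 (r = 0.876), glycine-rich protein1 (0.872), phosphatidylethanolamine-binding protein10 (0.850), C2C2-GATA-transcription factor 11 (0.842) and superoxide dismutase3 (0.842).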

How the data were processed

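RNA-seq of maize kernels was measured in 18 libraries. The authors aligned reads to B73 AGPv4 with HISAT2 2.1.0 without strand, built loci with Cufflinks and Cuffcompare, and used HTSeq 0.11.2 for counting and DESeq2 size factors for scaling, and the deposited unit is this signal, a normalized count per locus. Tools and versions are from the submitters' processing notes and the study's methods. RNA was extracted with a BAIXU kit for maize kernels, first-strand cDNA was made with the RevertAid kit, and a sequencing company prepared the libraries. The table held 77704 loci and 26258 intron entries, which were left out of the tests. All values in a column were whole multiples of 1 step within 0.1%, so reads could be recovered for edgeR and DESeq2. No sample columns were left unused.

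Groups came from the labels of each library. limma 3.58.1 (R 4.3.3), with empirical Bayes and a trend of variance on mean, took 6 groups on log2(signal + 1) over the 29191 loci with a mean above 10, with Benjamini-Hochberg adjustment over all of them. Alternatives were pseudocounts of 0.5 and 5, other filters, no trend, only the groups compared, group weights, equal totals, equal upper quartiles, edgeR 4.0.16 with TMM, DESeq2 1.42.0, the limits of the study's methods (an unadjusted p under 0.05 and a log2 difference no smaller in size than 1) and leaving out each library. The difference between the lines from DAP 24 to maturity, the fit of the 12 immature libraries, the scaling alternatives for the lists and the exact permutation tests of ratios were chosen after the values were seen. The fits and the permutation test were tested on simulated data. The members and lists were chosen with earlier results of these data known. Named genes were all 3 members, in each folate list at most 1 called gene with the largest change each way, HPPK/DHPS, and the 5 named loci most correlated with each member. Marker and chorismate lists were drawn from gene names in the table.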

Additional observations from a re-analysis of the deposited data

Results flagged for a closer look

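Changes toward maturity differed between the lines in 3 tests. ADCS changed from DAP 24 to maturity by less in DAN3130 than in JI63, with a difference of -1.00 on the log2 scale (limma, adjusted p = 0.0286). ADCL1 differed between the lines by -1.46 from DAP 35 to maturity (adjusted p = 0.0167) and by -2.33 from DAP 24 to maturity (adjusted p = 0.000469), being lower in mature than in DAP 24 libraries in 3 of 3 DAN3130 libraries and higher in 3 of 3 JI63 libraries. The change in JI63 was not called (0.34, limma, adjusted p = 0.318), and it was -0.62 with equal totals. Of all loci, 57.5% had no overlap between these stages in DAN3130 and 62.9% in JI63. The differences of -1.00 and -1.46 were not called with equal totals or with equal upper quartiles.

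The intron entries, which no comparison used, held reads above the limit that a count of 0 allows, set at 3 reads, in at least 1 library for every member. The most reads in 1 library were 244 for ADCL1, 25 for ADCS and 14 for the ADCL2 locus. They were above the limit in 9 of 18 libraries for ADCL1, 7 of 18 for ADCS and 2 of 18 for the ADCL2 locus.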

How the results depend on the processing

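No paired analysis was possible because the libraries carry codes that are not shared between groups. Of 36 differences of the members, 20 kept their side of the threshold under every one of up to 31 alternatives, among them all 4 rises of ADCS toward maturity, and no called value changed sign. With equal totals, ADCS in mature DAN3130 minus JI63 kernels was -0.61 and its difference between the lines over the whole span -0.55, ADCL1 was -0.98 for the difference between the lines from DAP 35 to maturity, -0.71 for the lines on DAP 24 and -0.99 for mature minus DAP 35 in JI63, and the ADCL2 locus 0.42 for mature minus DAP 24 in JI63. With equal upper quartiles the same values were -0.99 (ADCS, whole span), -0.95, -0.83 and -0.94 (ADCL1) and 0.68 (ADCL2 locus), and ADCS on DAP 35 was -1.13 between the lines and called. Weights and fits of fewer groups kept the values and moved calls. A weight for each group's spread ended the calls of ADCS between mature lines (-1.11) and over the whole span (-1.00), and made calls of ADCS between the lines on DAP 35 (-0.56) and from DAP 24 to DAP 35 in JI63 (0.53), of ADCL1 in DAN3130 from DAP 24 to DAP 35 (-0.49) and in the difference between the lines there (-0.86), and of the ADCL2 locus between the lines on DAP 24 (0.72). Only the groups compared called the ADCL1 difference of -0.86, mature minus DAP 24 of ADCL1 in JI63 (0.34) and the 0.72 of the ADCL2 locus, and ended the call of -1.46 for ADCL1. The 12 immature libraries alone called -0.86, -0.49 and, for ADCS on DAP 35, -0.56. The call of ADCL1 between the lines on DAP 24 (-0.76) was lost with no filter, with a median above 10, with no trend and under the study's limits, no trend ended that of ADCS over the whole span (-1.00), DESeq2 called ADCS on DAP 35 (-0.58), and the study's limits called the ADCL2 difference between the lines over the whole span (-1.60).

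Leaving out 1 library gave -0.85 to -0.67 for ADCL1 between the lines on DAP 24, -1.11 to -0.83 for ADCS between the lines over the whole span (lost without DAN3130 libraries 8 or 11 or JI63 libraries 24, 25 or 41) and -0.71 to -0.40 for ADCS on DAP 35. For the ADCL2 locus it gave -1.42 to -0.50 between mature lines, 1.21 to 1.60 for mature minus DAP 24 and 0.55 to 1.43 for mature minus DAP 35 in JI63, -1.63 to -0.71 for the difference between the lines from DAP 35 to maturity and -2.15 to -1.22 over the whole span. Without DAN3130 library 35 all 5 of these were called. Where 2 libraries were left in a group, their spread was pooled with the other groups.

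The number of loci called moved by over 1.5 times in 61 of the fits. From DAP 24 to DAP 35 it was 1912 in DAN3130 (1029 to 6826 over the alternatives) and 2653 in JI63 (1515 to 7377), and from DAP 35 to maturity 14809 in DAN3130 (8477 to 15930). Between the lines it was 7244 on DAP 24 (4615 to 14140), 6788 on DAP 35 (3941 to 11959) and 10837 at maturity (3663 to 13081). For the difference between the lines it was 690 from DAP 24 to DAP 35 (268 to 4516), 4032 from DAP 35 to maturity (1340 to 7376) and 6052 over the whole span (3307 to 9064). The split into higher and lower calls also moved by over 10 percentage points with equal totals from DAP 24 to maturity (DAN3130 6530 and 10443, then 5035 and 13089; JI63 6084 and 8927, then 3452 and 13454) and in the difference between the lines from DAP 35 (1721 and 2311, then 2642 and 1603) and from DAP 24 to maturity (2850 and 3202, then 4052 and 2326). With equal upper quartiles it moved between the lines on DAP 35 (3303 and 3485, then 2243 and 6184), and for DAN3130 from DAP 24 to DAP 35 (1288 and 624, then 643 and 667), for JI63 (1245 and 1408, then 1091 and 598) and in their difference (484 and 206, then 104 and 164). Depth limits ADCL1 most in mature DAN3130 kernels, where 521 reads were counted over 3 libraries.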
